A study of Rattus norvegicus with 6 samples.

Results

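The genes described here are 10 genes by which neurons and their axons are commonly recognised: the neurofilament subunits Nefl, Nefm and Nefh, the synaptic release proteins Snap25 and Syt1, the growth-associated tubulin binder Stmn2, the cholinergic pair Chat and Slc18a3, the neuronal enolase Eno2 and the neuronal beta tubulin Tubb3. They were chosen by symbol, and every array probe whose deposited gene name or description gives one of these genes was taken, which gave 12 probes (3 for Syt1 and 1 for each other gene) among the 41012 probes of the array. Expression was measured in pooled spinal cord sections of adult Lewis rats, fixed in formaldehyde and embedded in paraffin, on 6 one-colour Agilent arrays with 1 array per group.

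The ENMO group received T cells specific for myelin basic protein on day 0, followed by NMO-IgG on day 4. NMO-IgG is human IgG from a patient with neuromyelitis optica and contains antibodies against the astrocytic water channel aquaporin 4. The EAEcoI group received the same T cells and a commercial normal human IgG (subcuvia, called control IgG here), and the EAEcoP group the same T cells and PBS. The NMO-IgG only and control IgG only groups received the antibody without T cells, and the healthy control group was left untreated. Rats were killed 24 hours after the antibody or PBS. Each array carried RNA of 5 rats, or of 3 rats for the healthy control, as a single pool after a round of amplification, so a group has no replicate and no spread between animals can be given. All groups share the strain, the fixation and the amplification, and disease in this model is passively induced by cells and antibodies from outside.

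Neurofilaments are the intermediate filaments of axons. The light chain Nefl forms the backbone with Nefm and Nefh, whose long side arms space the filaments in large axons such as those of motor neurons. Snap25 sits on the presynaptic membrane and is part of the complex that fuses vesicles, and Syt1 is the calcium sensor that triggers this fusion. Chat makes acetylcholine and Slc18a3 loads it into vesicles. Both are used in the spinal cord by motor neurons and a few interneurons, and the Slc18a3 gene lies inside the Chat gene. Much of the mRNA of these genes sits in neuronal cell bodies, and in pooled sections fewer neurons and less RNA per neuron cannot be told apart.

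Values are normalised signal intensities (NSI), the scanner software's background-corrected signals after quantile normalisation over the 6 arrays. A probe counts as measured on an array where the scanner software marked a share of at least 0.5 of its spots as well above background. The share of spots so marked was 35.43% to 41.68% on the arrays without T cells and 44.45% to 60.22% on those with T cells, lowest on control IgG only and highest on EAEcoP. Slide 1 carried control IgG only, EAEcoP and ENMO, and slide 2 carried the healthy control, EAEcoI and NMO-IgG only. Most members have 1 spot per array. The 263 probes printed as 10 spots had an SD of 0.364 on the log2 scale between spots well above background, which gives 0.515 for a difference between a pair of arrays, 0.446 for 1 array against the mean of 2, and 0.297 for 3 arrays against 3. These are errors of the spots only and not of the animals. They hold for 1 spot per array, and not for Snap25 and 1 Syt1 probe, whose values are means over 10 spots.

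Of the 12 member probes, 10 were measured on at least 1 array and 3 on all 6 arrays (Chat, Slc18a3 and Tubb3). The neurofilament probes are shown first because Nefh and Nefl differed most between arrays among the members measured on 4 or more of them (at least 36.5-fold and at least 16.7-fold from lowest to highest, the lowest being dim, against 2.38-fold for Nefm), each by the first 30 of its 60 bases in lower case, written 5′ to 3′. The array design places the Nefl probe on chromosome 15 at 47638898 to 47638957, the Nefm probe on chromosome 15 at 47698645 to 47698704 and the Nefh probe on chromosome 14 at 85595648 to 85595707, in a rat build that the scanner files do not name. The GC content of the whole probes was 55.0% for Nefl and 45.0% for Nefm.
Nefl: tgggtagcataaccagcggctactctcaga
Nefm: ctcctcagtccttgggggaattcaaatgca
Nefh: aagaggctaaacccaaagagaaggcagaag

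The 3 neurofilament genes did not share a pattern over the groups. The NSI of Nefl was 61.7 in ENMO, 38.5 in EAEcoI and 95.0 in EAEcoP with T cells and, without them, 19.9 in the healthy control, 177.3 with control IgG and 10.5 with NMO-IgG. It was highest in control IgG only, it was not well above background in NMO-IgG only or the healthy control, and the 3 arrays with T cells lay between these extremes. The scanner software's own error of the single Nefl spot was 10.2% to 12.5% of the signal on the 4 arrays where it was measured, and 46.1% in NMO-IgG only and 25.8% in the healthy control.

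Nefh was also highest in control IgG only. Its NSI was 44.9 in ENMO, 105.3 in EAEcoI and 104.7 in EAEcoP with T cells and, without them, 13.2 in the healthy control, 481.7 with control IgG and 34.2 with NMO-IgG. Neither NMO-IgG only nor the healthy control was well above background, so the same 4 arrays measured Nefh and Nefl. The array with the fewest spots above background thus gave the highest signal of both genes.

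Nefm was the steadiest of the 3. Its NSI was 26.9 in ENMO, 45.5 in EAEcoI and 64.2 in EAEcoP with T cells and, without them, 35.5 with control IgG and 41.2 with NMO-IgG, all well above background. The healthy control has no Nefm value because the scanner software marked its only spot as a non-uniform outlier, and with that spot kept its NSI would be 110.9. Control IgG only, the highest array for Nefl and Nefh, was the second lowest of 5 for Nefm.

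**Figure D1:**
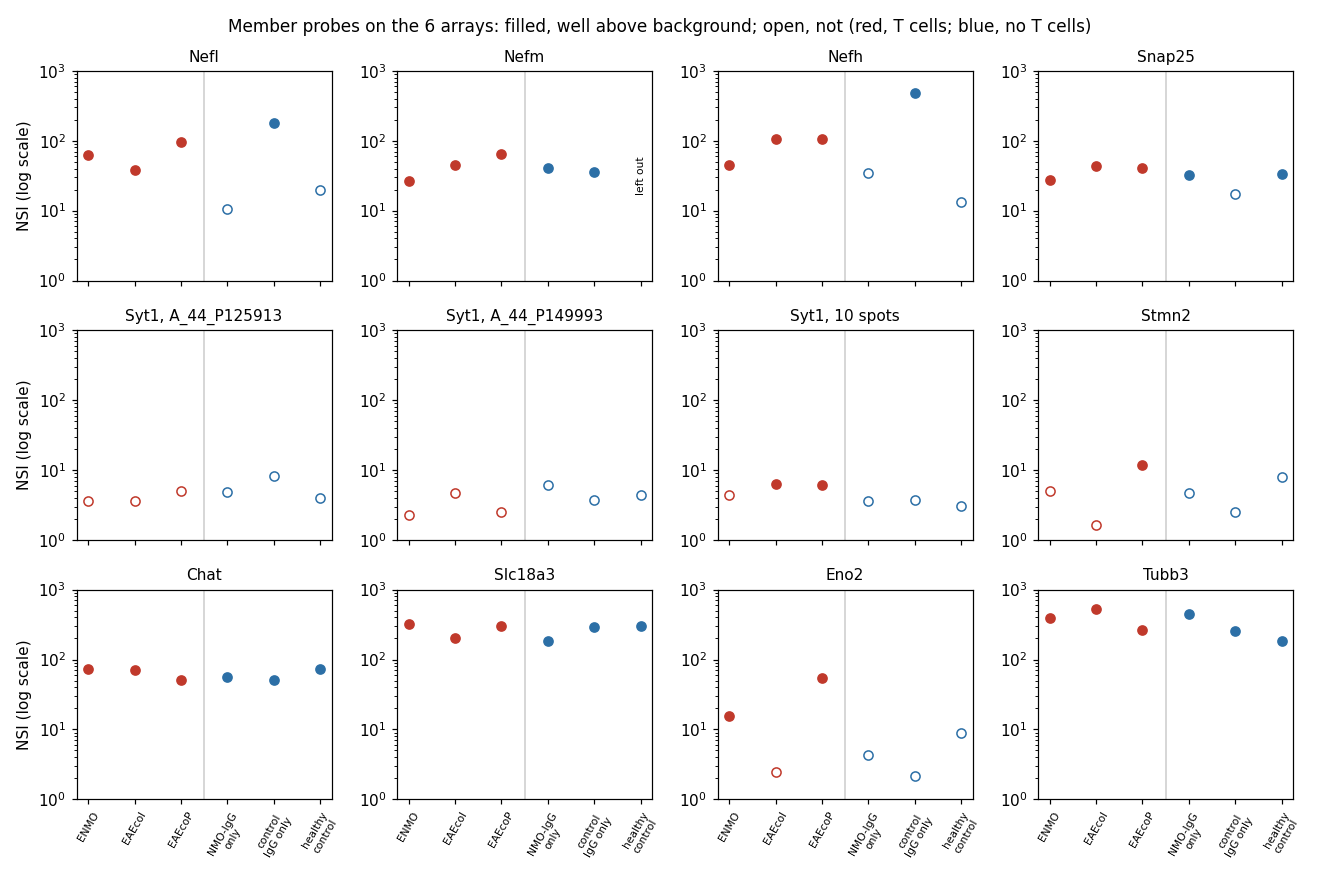
Normalised signal intensity (NSI, log axis) of each of the 12 member probes on the 6 arrays, 1 point an array, red for the 3 arrays with T cells and blue for the 3 without. Filled points are well above background and open points are not. Nefl and Nefh peak in control IgG only at 177.3 and 481.7, while Chat, Slc18a3 and Tubb3 are measured on all 6 arrays and vary less.

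With T cells against without, the mean NSI of Nefh was 85.0 against 176.4, which is 2.08-fold lower with T cells, and that of Nefl was 65.1 against 69.2. These ratios rested on control IgG only. Without that array the log2 ratio was 1.84 for Nefh and 2.10 for Nefl, both higher with T cells, against -1.05 and -0.09 with it, but the 2 arrays then left without T cells were not well above background, so these are no folds. On the mean of log2 values, which weighs 1 high array less, the difference was 0.40 ± 1.14 for Nefh and 0.87 ± 0.96 for Nefl (SE, limma). Within slide 1, which holds control IgG only, the log2 ratio was -2.69 for Nefh and -1.18 for Nefl, and within slide 2, where both arrays without T cells were dim, it was 2.15 and 1.34. No direction of Nefl or Nefh with T cells can therefore be given from these arrays. For Nefm the mean NSI was 45.6 with T cells against 38.4 over the 2 arrays without that have a value, a log2 ratio of 0.25, which turned to -0.45 with the healthy control spot kept and to -0.08 without EAEcoP.

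Among the 3 arrays with T cells, Nefm and Nefh were lowest in ENMO. Nefm in ENMO was 2.04-fold lower than the EAE mean of 54.9 (log2 ratio -1.03) and Nefh was 2.34-fold lower than the EAE mean of 105.0 (log2 ratio -1.23), each beyond 1 spot SD of 0.446. Nefl, at 61.7 against 66.8, lay between the 2 EAE arrays. A decrease of at least 2-fold in ENMO against EAE was found in 24.4% of all 27130 probes with a ratio, against 2 of 10 member probes. The Nefh ratio moved with the correction for trends across the array that the scanner software applies: the factor by which it multiplied the Nefh spot was 0.851 in ENMO, 2.23 in EAEcoI and 1.23 in EAEcoP. With this factor put back the log2 ratio of Nefh was -0.27, while that of Nefl became -0.65. With the normexp background correction the ratios were -0.21 for Nefm and -0.12 for Nefh.

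Without T cells, the contrast of the 2 antibodies was wide for Nefl and Nefh. Nefl was at least 16.7-fold and Nefh at least 14.1-fold higher in control IgG only than in NMO-IgG only, where neither was well above background. The scanner software's trend factor on these 2 arrays was 2.12 and 1.30 for Nefl, and 1.32 and 2.39 for Nefh. Its part in these bounds was not tested. Against the healthy control, where neither was well above background either, control IgG only was at least 8.93-fold higher for Nefl and at least 36.5-fold higher for Nefh. A bound here sets the dim array at the higher of its own value and the lowest signal of any probe well above background on it. With T cells the same contrast of antibodies gave 61.7 against 38.5 for Nefl and 44.9 against 105.3 for Nefh, so Nefl was 1.60-fold higher and Nefh 2.34-fold lower with NMO-IgG. A fall of at least 2-fold from control IgG to NMO-IgG was seen in 14.1% of 18074 probes without T cells, against 2 of 7 member probes, a rise of that size in 16.6%, against 0, and in 18% of 23274 probes with T cells, against 1 of 9, with a rise in 14.9%, against 1.

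Snap25 is the best sampled member, since its probe is printed as 10 spots on every array. Its mean NSI over the spots was 27.3 in ENMO, 43.3 in EAEcoI and 41.0 in EAEcoP with T cells and, without them, 33.0 in the healthy control, 17.3 with control IgG and 32.0 with NMO-IgG. The SD between its spots was 0.129 to 0.499 on the log2 scale on the 3 arrays with T cells, and 0.830 in the healthy control, 0.876 with control IgG and 0.412 with NMO-IgG. In control IgG only 3 of 10 spots were well above background, against 8 to 10 of the kept spots on the other arrays. Control IgG only was thus the lowest array for Snap25, the reverse of its place for Nefl and Nefh.

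Spots of Snap25 at the same position can be compared between arrays. EAEcoI was above control IgG only at 10 of 10 positions, by 1.33 ± 0.89 (log2, mean and SD over positions), and ENMO was above it at 9 of 10, by 0.66 ± 0.55. Against the other arrays without T cells the order was mixed. ENMO was below NMO-IgG only by 0.23 ± 0.51 and below the healthy control by 0.27 ± 0.86, with 4 of 10 positions the other way in each. EAEcoI was above each of these at 9 of 10 positions. EAEcoP was above NMO-IgG only at 8 of 9 positions and above the healthy control at 3 of 9. ENMO was below EAEcoI by 0.67 ± 0.59, with 2 of 10 positions the other way, and below EAEcoP by 0.61 ± 0.55 over 9 positions, with 2 the other way. EAEcoI and EAEcoP differed by 0.08 ± 0.46. The 2 EAE arrays therefore carried more Snap25 signal than ENMO at most positions. Positions on 1 array are repeats of the same pooled RNA, and a single spot ranged from 7.98 to 38.9 within control IgG only.

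**Figure D2:**
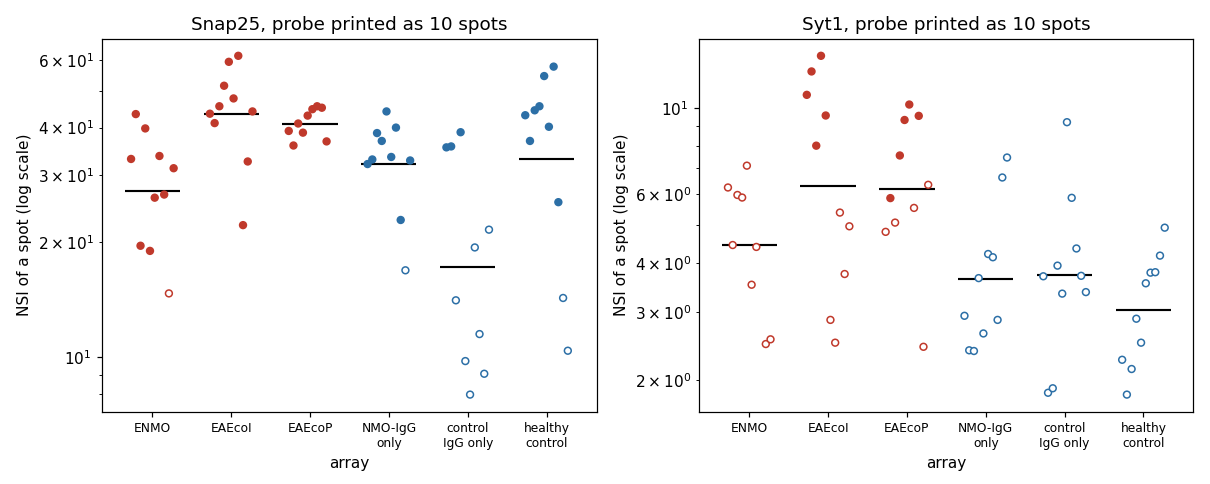
NSI (log axis) of each spot of Snap25 (left) and of the Syt1 probe printed as 10 spots (right) on the 6 arrays, ordered by position within an array, with the black line at the mean of the log2 values. Filled spots are well above background. The Snap25 spots of control IgG only spread from 7.98 to 38.9, and for Syt1 EAEcoI and EAEcoP have 5 spots each above background and the other arrays 0.

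With T cells against without, Snap25 was 37.2 against 27.4, a ratio of 1.36 (log2 0.44), with the groups overlapping. The spot SD of 0.297 is for 1 spot per array and does not apply to this mean over 10 spots. Without control IgG only, where Snap25 was not well above background, the log2 ratio was 0.19. The limma difference was 0.47 ± 0.53 (SE) with an adjusted p of 0.737. ENMO over the EAE mean was 0.648 (log2 -0.63), and without T cells NMO-IgG only was at least 1.85-fold higher than control IgG only. Over spot positions that difference was 0.89 ± 0.85 (log2), with 3 of 10 positions the other way. For Snap25 the mean of the antibody contrast thus had opposite signs with and without T cells.

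The 3 Syt1 probes lay close to or below the background. Their sequences matter here because one of them, which the array assigns to a splice variant of Syt1, is the only one to pass. Its deposited coordinates on chromosome 7 run from 47389980 to 47676571, a span of 286592 bases for 60 bases of probe, so it joins separate stretches of the gene. It shares a run of 32 bases with a second Syt1 probe, at 47389965 to 47390024. Below, 30 bases of each are given around the start of that run, bases 14 to 43 of the first and 1 to 30 of the second, with the shared run in capitals, followed by the first 30 bases of the last probe, at 47243495 to 47243554.
Syt1 variant probe: ctcattaagattgaaGAAAGAACGCCATTA
Syt1 second probe: aaggaaaagggagGAAAGAACGCCATTAAC
Syt1 last probe: acaatccagtggtacttcaaatcctgtttt

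The variant probe, printed as 10 spots, gave 4.45 in ENMO, 6.31 in EAEcoI and 6.20 in EAEcoP with T cells and, without them, 3.04 in the healthy control, 3.72 with control IgG and 3.63 with NMO-IgG. It was measured in EAEcoI and EAEcoP, with 5 of 10 spots above background in each. The second probe ran from 3.59 to 8.11 and the last from 2.26 to 6.13, neither above background on any array. The values of the variant probe with T cells all lay above those without. No array without T cells reached the background mark, and the bound was below 1, so no fold is given. Over all probes, 11.3% had the 3 T cell arrays above the 3 others and 6.79% had them below. Among the members only this probe was so ordered, and its order is among values that were mostly not above background.

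Stmn2, which regulates microtubule growth in regrowing axons, passed only in EAEcoP. Its NSI was 5.09 in ENMO, 1.65 in EAEcoI and 11.8 in EAEcoP with T cells and, without them, 7.86 in the healthy control, 2.54 with control IgG and 4.68 with NMO-IgG. The EAEcoP value was at least 1.89-fold above EAEcoI, where the probe was dim. The groups with and without T cells overlapped, and their bound was below 1.

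Eno2, the enolase form of mature neurons, was likewise brightest in EAEcoP. Its NSI was 15.7 in ENMO, 2.45 in EAEcoI and 55.1 in EAEcoP with T cells and, without them, 8.77 in the healthy control, 2.19 with control IgG and 4.26 with NMO-IgG. It was well above background in ENMO and EAEcoP, both on slide 1, and on no other array. EAEcoP was at least 8.85-fold above EAEcoI, and ENMO at least 2.52-fold above EAEcoI, so the 2 EAE arrays differed from each other for Eno2. With T cells against without, the bound was at least 1.18-fold, and the limma difference was 1.57 ± 1.03 (SE, log2) with an adjusted p of 0.57. No array without T cells measured Eno2, so only this bound is given as a fold.

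The cholinergic pair varied little. Chat was 73.2 in ENMO, 69.7 in EAEcoI and 50.5 in EAEcoP with T cells and, without them, 74.4 in the healthy control, 50.8 with control IgG and 56.4 with NMO-IgG, and its highest array was 1.47-fold above its lowest. Slc18a3 was 320.1 in ENMO, 200.9 in EAEcoI and 303.2 in EAEcoP with T cells and, without them, 300.7 in the healthy control, 289.2 with control IgG and 182.6 with NMO-IgG, a span of 1.75-fold. For both genes the arrays with and without T cells overlapped. The ratio with T cells over without was 1.06 for Chat and 1.07 for Slc18a3, and the limma difference was 0.09 ± 0.50 and 0.10 ± 0.52 (SE, log2).

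ENMO over the EAE mean was 1.22 for Chat and 1.27 for Slc18a3, both within 1 spot SD. Slc18a3 was low on EAEcoI and NMO-IgG only, both on slide 2, and 289.2 to 320.1 on the other 4 arrays, whereas Chat was highest in the healthy control of that slide. The antibody contrast for Slc18a3 was 1.59-fold higher with NMO-IgG in the presence of T cells and 1.58-fold lower without. For Chat it was 1.05 and 1.11.

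Tubb3, a component of neuronal microtubules, was 392.3 in ENMO, 536.6 in EAEcoI and 260.8 in EAEcoP with T cells and, without them, 183.7 in the healthy control, 255.0 with control IgG and 448.4 with NMO-IgG. All 6 arrays measured it, and the groups overlapped. With T cells the mean was 396.6 against 295.7, a ratio of 1.34 (log2 0.42, beyond the spot SD), and the limma difference was 0.46 ± 0.57 (SE) with an adjusted p of 0.757. The control IgG arrays gave 536.6 with T cells and 255.0 without, and EAEcoI was 2.06-fold above EAEcoP. Tubb3 in ENMO, at 392.3 against the EAE mean of 398.7, showed no difference beyond the spot error, but with normexp the log2 ratio was -0.66 and with the trend factor put back -0.80.

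**Figure D3:**
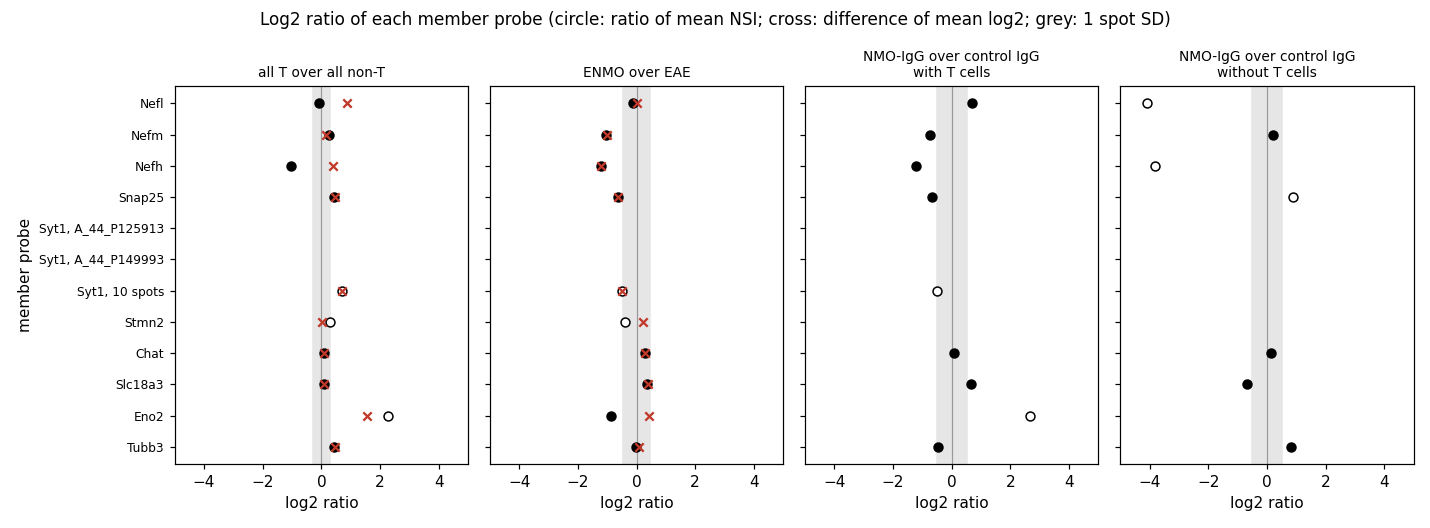
Log2 ratio of each member probe in 4 comparisons, with the ratio of mean NSI as a circle (open where 1 group was not well above background) and the difference of mean log2 values as a red cross. Grey marks 1 SD of single spots on either side of 0. Nefh lies at -1.05 as a ratio of means and at 0.40 as a difference of log2 means for all T over all non-T.

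Over the members together, no probe passed an adjusted p of 0.05 for T cells in limma. The same held for all 27468 probes tested, of which 0% were called, while 11.5% (3149) had an unadjusted p under 0.05, against 0 of 10 member probes. Adjusted p-values of the members ran from 0.57 for Eno2 to 0.992 for Stmn2. The fit compares 3 arrays of different treatments with 3 others, so its spread includes the differences between antibodies, and Nefm entered with 5 arrays. Of the 10 member probes, 3 (Syt1, Stmn2 and Eno2) were well above background with T cells only, so they passed the filter only through arrays with T cells. The median log2 ratio was 0.27 with them and 0.09 over the 3 probes measured on all arrays, against 0.03 over all probes. In ENMO against EAE 2 member probes were higher and 8 lower, while 45.1% of all 27130 probes were higher. The member median was -0.45 against -0.14 over all probes. Of the 8, Syt1 and Stmn2 were well above background in EAE only, so they passed the filter only through EAE arrays. The 12 reference genes, such as Actb and Gapdh, had a median of -0.75 in this comparison and of 0.58 with T cells, and the part of that shift in the member values was not tested. The member median for ENMO against EAE changed to 0.05 when log2 values were averaged and to 0.29 over the 3 probes measured on all arrays.

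Control IgG against no antibody gave no common direction either. With T cells 5 member probes were higher in EAEcoI than EAEcoP and 5 lower, with a median of -0.24. By ratio of mean NSI, 3 member probes (Nefl, Stmn2 and Eno2) were at least 2-fold lower, beside 26.2% of all probes. By the same measure 1 (Tubb3) was at least 2-fold higher, beside 25.9%. Stmn2 and Eno2 were dim in EAEcoI, and their bounds were at least 1.89-fold and at least 8.85-fold. Without T cells 3 of 6 measured member probes were higher in control IgG only than in the healthy control, among them Nefl and Nefh by at least 2-fold, beside 12.8% of all probes.

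The mean pattern of Chat, Slc18a3 and Tubb3, centred for each probe, ranged from -0.16 in control IgG only to 0.28 in ENMO on the log2 scale. The 5 genes most like it among 6619 probes measured on all arrays were Znfx1, Tmco4, Lsp1, Fam229a and Ebf4, with Pearson's r of 0.973, 0.971, 0.968, 0.967 and 0.964 over 6 arrays. With 6 points and 6619 candidates such values are a description only.

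Other genes of neurons were read from 5 lists of 111 genes, of which 106 had a probe and 97 were measured on at least 1 array by their brightest probe. By limma 0 were called, and 9.28% (9) had an unadjusted p under 0.05, against 9.60% of all measured genes. With T cells against without, 22.7% (22) were at least 2-fold higher by ratio of mean NSI, against 14.7% of all genes, and 12 of these 22 were not above background on any array without T cells. At least 2-fold lower were 10.3% (10), against 1215 of all 12100 measured genes, a near equal share. The median log2 ratio was -0.13 against -0.06 over all genes. In ENMO against EAE 10.3% were at least 2-fold higher, against 13.5% of all genes, and 24.7% lower, against 19.9%, with a median of -0.10 against -0.02.

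In the axonal cytoskeleton list, 21 of 22 genes were measured and the median for T cells was -0.06. The intermediate filament gene Prph, found in motor and sensory neurons, was 1390 to 7181 with T cells and 4462 to 11444 without, and the microtubule protein Mapt 29.9 to 47.9 and 13.4 to 123.2. A second Mapt probe was also lower with T cells, by a log2 ratio of -1.69. At the other end, the kinesin heavy chain Kif5c and the stathmin Stmn3 were brightest in EAEcoP, at 50.6 and 52.5, and at most 8.23 on every other array. Each was well above background on 2 arrays, none of them without T cells. The bound with T cells was 1.27-fold for Kif5c and below 1 for Stmn3. The Kif5c bound is for the mean of T cell arrays at 6.4 to 50.6 and need not hold for each. In ENMO, Prph was above the EAE mean by a log2 ratio of 2.01.

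The synaptic vesicle list had 25 of 30 genes measured, with a median of 0.22 for T cells and -0.49 for ENMO against EAE. The vesicle proteins Sv2a and Syngr3 were lowest with T cells, by 2.98-fold and 2.49-fold. Sv2a was 60.1 to 204.0 with T cells and 154.0 to 709.2 without, again with its highest value in control IgG only. Syngr3 was 100.2 to 150.4 with T cells and 270.3 to 351.2 without. Its T cell arrays thus all lay below the others, as did those of 6.79% of all 27274 probes. Syngr3 was named for its low ratio in this comparison, so this order is no separate result. The fusion ATPase Nsf was 30.9 to 112.0 with T cells and 12.6 to 23.5 without. The mean of the complexin Cplx2 was at least 2.43-fold higher with T cells, at 88.0 in EAEcoP and 14.4 and 14.5 on the other T cell arrays. Cplx2 was well above background on 2 arrays, none of them without T cells.

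The cholinergic and motor neuron list had 16 of 22 genes measured, with a median of -0.26 for T cells. Besides Prph, the nicotinic receptor subunit Chrna4 was 7.11 to 38.3 with T cells and 19.8 to 54.3 without. The homeodomain factor Isl1 had values of 3.33 to 10.7 and a bound below 1. Acetylcholinesterase, Ache, which breaks down acetylcholine, was 8189 in EAEcoI and 995.8 to 2130 on the other arrays, so that its 3.27-fold ratio rested on 1 array. These values are of its brightest probe, and a second Ache probe was also higher with T cells, by a log2 ratio of 1.28.

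The list of neuronal enzymes and soluble proteins had 25 of 26 genes measured, with a median of -0.35. The secretory granule protein Chgb was 8.83 in EAEcoI, 82.2 in ENMO, 87.5 in EAEcoP and 96.3 to 163.6 without T cells. The calcium sensor Vsnl1 was 66.3 in control IgG only and at most 18.1 elsewhere, and a second Vsnl1 probe went the other way. The kinase subunits Camk2a and Camk2b were higher with T cells, Camk2a by at least 3.93-fold and Camk2b at 56.0 to 158.4 against 23.6 to 27.7, with 1 of 3 Camk2b probes in the opposite direction. The Camk2a bound is for the mean of arrays at 20.1 to 105.6. A second Camk2a probe had a log2 ratio of 0.66. Camk2a was well above background on 2 arrays, none of them without T cells.

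In the neuron injury list all 14 genes with a probe were measured, with a median of -0.33. The neuropeptide Npy was 228.2 to 371.1 with T cells and 594.7 to 940.9 without. Ddit3, a stress response factor, was 26.0 to 56.9 and 15.6 to 215.5. The peptides Adcyap1 and Vip were the highest. Adcyap1 was 1641 in EAEcoI and 238.6 to 501.1 elsewhere by its brightest probe, and slightly lower with T cells by its second probe. Vip reached 209.2 in EAEcoP but only 16.3 in ENMO, against 3.53 to 7.36 without T cells. It was well above background on 2 arrays, none of them without T cells, and passed the filter only through these. Its bound of at least 7.22-fold is for the mean of the 3 T cell arrays and need not hold for each.

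**Figure D4:**
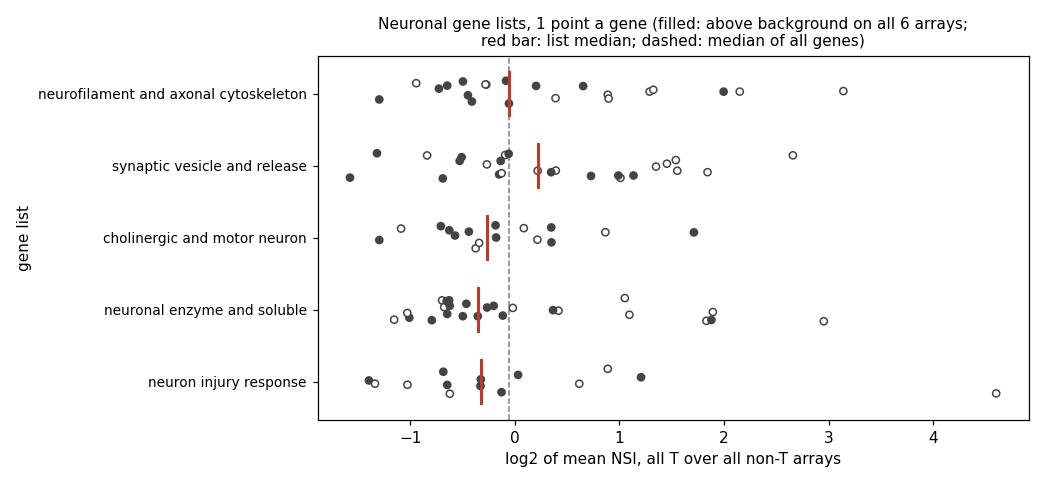
Log2 of mean NSI with T cells over without for each measured gene of the 5 neuronal lists, 1 point a gene by its brightest probe, with the list median in red and the median of all genes dashed. Filled points were well above background on all 6 arrays. List medians lie between -0.35 and 0.22, and most points above 1 are open.

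Other neuronal list probes were highest in EAEcoP in 38.2% of 131 cases and in control IgG only in 21.4%, against 31.5% and 14.1% over all 27274 probes. Among the 9 member probes with a value on every array, 3 were highest in EAEcoI, 2 in EAEcoP and 2 in control IgG only.

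The tissue label was checked against defining markers, named outside the rule for genes. Of neurons, Map2 was measured on all 6 arrays, at 14.3 to 24.6, while the nuclear marker Rbfox3 was above background on 1 array. Of oligodendrocytes, 10 of 10 markers were measured. Of astrocytes 8 of 10 were measured, and the summed level was 356 to 746 with T cells and 1626 to 2629 without, while the median log2 ratio of the 8 genes was -0.22 and Gfap was 15.9 to 42.5 with T cells and 9.73 to 41.5 without. Of microglia and macrophages 10 of 10 were measured, with sums of 3943 to 15543 and 2227 to 3759. The median log2 ratio of these 10 genes was 0.69, while Cd68 overlapped, at 346.0 to 818.2 with T cells and 384.1 to 741.4 without. Of T cells 6 of 9 with a probe were measured, with sums of 1141 to 2601 and 772 to 1070. Cd3e, Cd2 and Cd28 were below background on every array. These sums moved with T cells, and their part in the neuronal values was not tested. Of Schwann cells and nerve roots 9 of 10 were measured, with sums of 1910 to 5400 and 4214 to 5708, and of sensory ganglia 11 of 12, with 4289 to 9973 and 7331 to 14795. Both sums were lower in EAEcoI and EAEcoP than on any of the other 4 arrays. The sensory ganglion list holds Prph, which made up 1390 of 4753 in EAEcoI and 2171 of 4289 in EAEcoP. It made up 7181 of 9973 in ENMO, 10452 of 14795 in NMO-IgG only, 11444 of 14127 in control IgG only and 4462 of 7331 in the healthy control. The differences between arrays in that sum were thus largely those of 1 gene. The skeletal muscle sums were 1656 to 1833 and 1271 to 2303.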

How the data were processed

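RNA of 6 pooled spinal cord samples was measured on 6 one-colour Agilent arrays. The authors deposited, per the file headers, the signal intensity of each spot from Agilent Feature Extraction 10.1.1.1, after its correction of background and of spatial trends, with raw intensities, its error and flags, and a second set with 1 intensity per target, which equalled the scanner signal for all 32374 targets with 1 spot (tolerance 0.001). Neither is normalised between arrays. The 43379 spots that are not controls form 41012 probes, of which 20767 were matched to a symbol. Outlier spots were dropped, the log2 signals of a probe's remaining spots were averaged, and arrays quantile-normalised (limma 3.58.1 in R 4.3.3, python 3.11.15) to NSI, as the methods name. A trend factor is the multiplier the scanner software applied to a spot for its place on the array.

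Fold changes are ratios of mean NSI. Between single arrays no p-value is given. T cells against none was fitted with limma over the 27468 probes that 1 or more arrays measured, at a threshold of 0.05 on the Benjamini-Hochberg adjusted p. The script was tested on simulated data. Precision is limited by the number of arrays. Members, gene lists and tests were chosen with earlier results of these data known. Named genes are the 10 members, for each other neuronal list the 2 highest and 2 lowest measured genes with T cells, markers where a list is described, and the 5 genes most like the members measured on all arrays. Alternatives were 75th percentile scaling, no normalisation between arrays, normexp (offset 50), no background correction, filters on dim probes, the brightest probe, outlier spots kept, averaging log2 values, slide or antibody as a block, single slides or EAE arrays, leaving out each array and, chosen after seeing the data, the trend factor put back.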

Additional observations from a re-analysis of the deposited data

Results flagged for a closer look

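For 3 members, the NMO-IgG array lay above the control IgG array in one T cell background and below it in the other, by more than the spot SD of 0.515 each time. That SD is for 1 spot per array, while Snap25 is a mean over 10 spots. The log2 difference of NMO-IgG minus control IgG was 0.68 with T cells and -4.07 without for Nefl, -0.67 and 0.89 for Snap25, and 0.67 and -0.66 for Slc18a3. Each value compares 1 array with 1 array, and the difference between the backgrounds was not tested. Nefl in NMO-IgG only and Snap25 in control IgG only were not well above background.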

How the results depend on the processing

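Animals could not be paired, because the labels give no replicate numbers and each group has 1 array. Arrays could be matched by antibody only, which sets EAEcoP, given PBS, beside the untreated healthy control. With the antibody as a block over the 3 T cell and 3 other arrays, limma called 0 probes, and Eno2 had an unadjusted p of 0.0495 (adjusted 0.478). The median log2 change of member probes with T cells was 0.27 and moved to 1.09 without normalisation between arrays, where the median of all probes was 0.81, and to 0.59 within slide 2. Leaving out 1 array gave 0.24 to 0.43. The 0.27 includes Syt1, Stmn2 and Eno2, which passed the filter only through T cell arrays. Over the probes well above background on all 6 arrays the median was 0.09. For ENMO over EAE it was -0.45 and moved to -1.28 without normalisation between arrays, where all probes had a median of -0.85, to 0.29 over probes well above background on all 6 arrays and to 0.048 for log2 means, and leaving out 1 EAE array gave -0.60 to -0.45. For NMO-IgG over control IgG with T cells it was -0.45, and 0.07 over probes on all 6 arrays and 0.15 with the trend factor put back. Without T cells it was 0.15 and stayed between 0.12 and 0.17. Probes called by limma numbered 0, against 34 without normalisation between arrays, 5 with the trend factor put back, and 0 to 213 when 1 array was left out (213 without ENMO and 3 without EAEcoI). No member probe was called under any of these, with 0 to 2 at an unadjusted p under 0.05.

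Of 261 gene values under an alternative, 47 had another sign than the reported value, and in 14 of these the reported value was beyond 1 spot SD. With T cells Nefh changed from -1.05 to 0.40 for log2 means, 1.84 without control IgG only (-1.60 to 1.84 when 1 array was left out) and 2.15 within slide 2, Syt1 from 0.71 to -0.075 with the trend factor put back, and Stmn2 from 0.30 to -0.056 with normexp, -0.12 without background correction, -0.022 without control IgG only (leaving out 1 array in turn gave -0.022 to 0.78) and -0.62 with the trend factor put back. For ENMO over EAE, Syt1 changed from -0.49 to 0.007 with normexp, to 0.008 without background correction and to 0.047 with the trend factor put back, and Eno2 from -0.87 to 0.44 for log2 means and to 2.68 against EAEcoI alone, which is the same as without EAEcoP, against -1.81 without EAEcoI. The cause was not tested, and the values of Syt1, Stmn2 and Eno2, and those of Nefh without control IgG only or within slide 2, are set against arrays not well above background and are no folds. Of the other gene values, 171 moved by less than the spot SD and 76 by more. Signals of Syt1, Stmn2 and Eno2 near background, 1 pool per group and 1 spot per probe limit what can be read.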
